A study of Mus musculus with 4 samples.

Results

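The 10 genes described are cadherins of the developing cortex, taken by symbol from a table of 32681 genes: the type I cadherins Cdh2 and Cdh4, the type II cadherins Cdh6, Cdh8, Cdh9, Cdh10, Cdh11, Cdh12 and Cdh18, and the lipid-anchored Cdh13. They were read in 4 RNA-seq libraries of primary neuron cultures from the neocortex of wild-type CD-1 mouse embryos at embryonic day 13, grown in Neurobasal medium with B27. In the control group were 2 cultures given a control short hairpin (shRNA) by transfection, and in the DcpS shRNA group 2 cultures given a hairpin against DcpS, the scavenger decapping enzyme, which breaks down caps that remain once an mRNA has been degraded from its 3′ end. The titles give the DcpS hairpin 1 name, shDcPS-2. With 1 hairpin, effects of less DcpS and other effects of that hairpin cannot be told apart. The share of transfected cells and the time after transfection are, in the sources used here, not given.

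Cadherins are calcium-dependent adhesion proteins that bind cadherins on the neighbouring cell. The tail of a type I or type II cadherin binds β-catenin and p120-family catenins, and α-catenin links the complex to actin. In the developing cortex N-cadherin, the product of Cdh2, holds radial glia together at the ventricular surface and takes part in neuronal migration, while type II cadherins are made in distinct sets of areas, layers and nuclei and take part in sorting neurons and matching synaptic partners.

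The libraries held 17754768 to 21793685 reads. Within a group the libraries were not copies of one another: over genes, their counts gave a chi-square of 1.69 per degree of freedom for the 2 controls and 2.82 for the 2 DcpS shRNA libraries. The labels do not say whether the cultures came from separate litters, and the spread behind each p-value may be technical. Dcps, which checks the label, had a normalised read count (reads divided by the library's size factor) of 499.8 and 507 in control libraries against 114 and 119.6 under DcpS shRNA. Neuronal markers were abundant in every library: the summed normalised read count of 8 of them, Tubb3 and Map2 included, was 93576 to 94947 in control libraries against 89667 to 90204 under DcpS shRNA. Of the endothelial markers, Cldn5 stood at 0 to 2 reads and Cdh5, the endothelial cadherin, at 2 to 11 reads per library. Others, Kdr among them, were tested and are given below. The summed normalised read count of all 7 endothelial and mural markers was 708 and 776 in control libraries against 442 and 412 under DcpS shRNA.

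Of the 10 cadherins, 1 changed with DcpS shRNA: Cdh8 fell to 66.8% of its control level, and the other 9 did not pass the test (limma on log2 values with a Benjamini-Hochberg adjusted p under 0.05 over all 18110 genes tested). All 10 were expressed highly enough to be tested. The same test called 5.79% of all genes, with 3.65% of all genes lower and 2.14% higher, beside 10% of the cadherins; edgeR called 5.95% and DESeq2 2.5% of all genes. The median log2 fold change of the 10 cadherins was −0.14, beside 0.00 for all genes tested, with 4 members above 0 and 6 below. The DcpS shRNA and control libraries did not overlap for 5 of the 10, 3 lower and 2 higher; that was true of 48.4% of all genes tested.

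Levels can be compared between genes only per length, as reads divided by annotated exon length and by the library total (RPKM). On that scale Cdh2 was far above the rest in the controls at 67.5 ± 3.41 RPKM (SD, n = 2), 56.3% of the summed level of the 10 genes. Cdh13 followed at 15.02 ± 0.200 RPKM, Cdh4 at 12.1 ± 0.323, Cdh11 at 8.03 ± 0.575, Cdh8 at 6.47 ± 0.145, Cdh6 at 5.66 ± 0.0876 and Cdh10 at 3.32 ± 0.0563 (SD, n = 2 each). Cdh18, Cdh9 and Cdh12 stood well below these, at 0.704 ± 0.147, 0.663 ± 0.0562 and 0.462 ± 0.00259 RPKM. Neighbours in this order did not overlap in the 2 controls, except Cdh18 and Cdh9, whose values did.

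**Figure D1:**
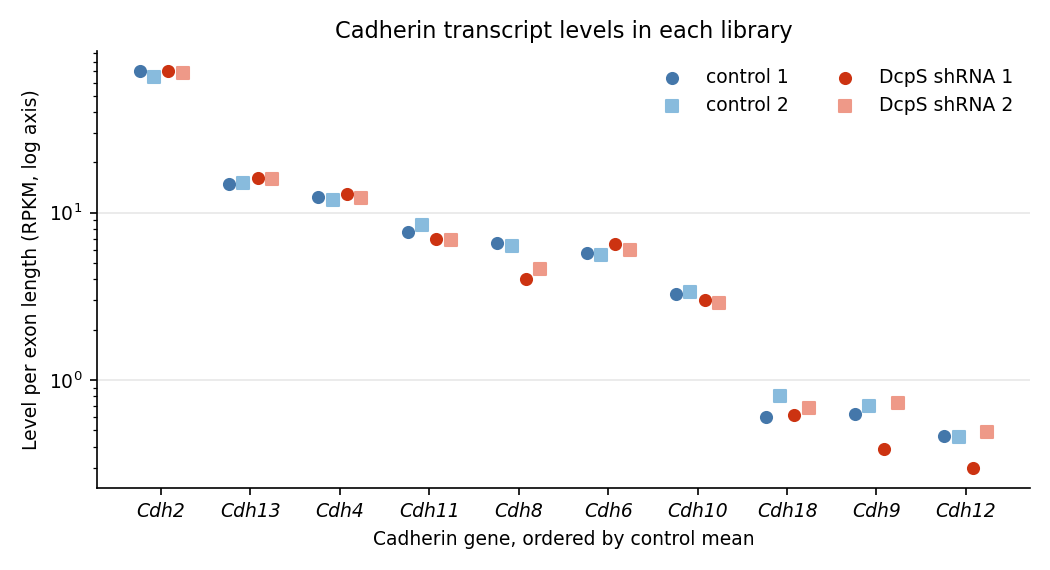
Level of each cadherin in reads per exon length and library total (RPKM, log axis), with 1 point per library and genes ordered by their control mean. Cdh2 stands at 65.1 to 70.7 RPKM, Cdh8 is the gene whose DcpS shRNA points (3.996 and 4.64) lie farthest below its control points (6.57 and 6.37) among genes above 1 RPKM, and Cdh18, Cdh9 and Cdh12 lie below 1 RPKM.

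Cdh8 codes for a type II cadherin made by subsets of cortical projection neurons and present at excitatory synapses. It lies on the minus strand of chromosome 8 (GRCm38, 99024471 to 99416471, GENCODE M21), and 23 bases of its exons are shared with an annotated antisense gene. Its normalised read count was 1009 and 976 in control libraries and 612 and 713 under DcpS shRNA. Both DcpS shRNA libraries were thus below both controls, and they differed from each other by more than the controls did. The mean went from 993 ± 23.2 to 663 ± 71.1 (SD, n = 2 per group), leaving 66.8% ± 7.17 of the control mean (SD of the DcpS shRNA libraries only). The log2 difference was −0.59 (SE 0.08, 95% interval −0.75 to −0.43), with a limma Benjamini-Hochberg adjusted p of 0.000156. In bulk libraries fewer cells that express Cdh8 and less Cdh8 RNA per cell cannot be told apart.

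The call of Cdh8 held in each of the 12 alternative fits, with log2 fold changes from −0.70 to −0.48 and adjusted p-values up to 0.000207 (limma, edgeR or DESeq2, Benjamini-Hochberg). The smallest fall, −0.48, was that without DcpS shRNA 1, and the largest, −0.70, that without DcpS shRNA 2. An exact permutation test of 2 libraries against 2 cannot give a p below 0.333, so the call rests on limma's spread pooled across genes.

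Cdh11 codes for a type II cadherin close in sequence and binding to Cdh8, made by neurons and also by mesenchymal cells such as meningeal fibroblasts. The gene lies on the same strand of the same chromosome (102632095 to 102785642). Its normalised read count was 1346 and 1488 in control libraries and 1235 and 1211 under DcpS shRNA, so the groups did not overlap. The difference on the log2 scale was −0.21 (SE 0.06, 95% interval −0.34 to −0.08), and it missed the threshold (limma, Benjamini-Hochberg adjusted p 0.0598). It passed in edgeR (adjusted p 0.0486), without control 1 (limma, 0.0336) and without DcpS shRNA 1 (0.0191). It did not pass in DESeq2 (adjusted p 0.262), without DcpS shRNA 2 (limma, 0.0610) or without control 2, where the log2 difference was −0.14 (limma, 0.544).

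Fibroblast and meningeal markers were lower in the same libraries. Of 8 on the list 7 fell, Col1a1, Col3a1 and Postn among them (limma, Benjamini-Hochberg adjusted p under 0.05). The same test called 3.65% of all genes lower and 2.14% higher. The summed normalised read count of the 8, itself not tested, was 11297 to 12409 in control libraries against 6660 to 6891 under DcpS shRNA. None of the 8 was at 0 in any library. In DESeq2 the calls of Dcn (adjusted p 0.0966), Lum (0.269) and Pdgfra (0.158) ended, and that of Lum ended also without control 1 (limma, 0.0973), control 2 (0.106) or DcpS shRNA 1 (0.0980). Of 5 astrocyte markers 3 fell, Gfap, Aqp4 and Gja1. The sum of all 5 was 3768 to 3946 in control libraries against 3136 to 3333 under DcpS shRNA. Most of that sum was Slc1a3, which was not called, at 2812 and 2877 in control libraries against 2550 and 2681 under DcpS shRNA. The call of Gfap ended without control 2 (log2 fold change −0.51, limma adjusted p 0.212) and that of Aqp4 in DESeq2 (0.103). Of 6 endothelial and mural markers tested, Kdr, Pdgfrb and Acta2 fell and 3 were not called. Pecam1, not called, stood at 222% and 161% of its control mean under DcpS shRNA, beside 63.3% and 136.7% in the controls. Rgs5 stood at 38.6% and 38.0% under DcpS shRNA and Cdh5 at 22.7% and 125%, neither called. Of 2 choroid plexus markers tested Ttr fell. The call of Kdr ended in DESeq2 (adjusted p 0.204) and without control 2 (log2 fold change −0.56, limma adjusted p 0.251). Of 6 radial glia and progenitor markers 1 rose, Nes. Of the 8 neuronal markers 2 fell, Snap25 (log2 fold change −0.26, limma adjusted p 0.0108) and Syt1 (−0.22, 0.0316), 1 rose, Rbfox3 (0.24, 0.0261), and 5 were not called. The call of Snap25 ended without control 1 (limma adjusted p 0.0692). That of Syt1 ended in DESeq2 (adjusted p 0.169) and without control 1 (limma, 0.0506) or control 2 (0.333), and that of Rbfox3 in DESeq2 (0.128) and without control 2 (limma, 0.318). Of 5 microglial and 5 GABAergic interneuron markers 0 were called in limma, edgeR or DESeq2. In limma 0 and 1 of them had an unadjusted p under 0.05, as did at least 2972 of the 18110 genes tested. The part of these cells in the values of Cdh8 and Cdh11 was not tested.

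The ratio of the Cdh8 to the Cdh11 normalised read count was 0.749 and 0.656 in control libraries and 0.496 and 0.589 under DcpS shRNA. It was lower in both DcpS shRNA libraries, with an exact two-sided permutation p of 0.333, the smallest that 2 against 2 can give. Cdh8 is the called member, so a lower ratio to another member repeats its fall and adds no separate evidence. Against Cdh6, a type II cadherin of another binding group and of nearly the same control read count, the ratio was 0.986 and 0.976 in control libraries and 0.528 and 0.664 under DcpS shRNA (exact permutation p 0.333).

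Cdh6, Cdh9 and Cdh10 form a group of type II cadherins that bind one another. They lie on mouse chromosome 15 together with Cdh12 and Cdh18, between 13028701 and 23474418 (GRCm38). In limma, edgeR or DESeq2 0 of these 5 neighbours passed the test, and DESeq2 gave Cdh9 no adjusted p. Cdh6 and Cdh10 had an unadjusted p under 0.05 in limma, as did at least 2972 of the 18110 genes tested. Cdh6 had a normalised read count of 1023 and 999.9 in control libraries against 1159 and 1074 under DcpS shRNA, higher in both, with a log2 difference of 0.14 (SE 0.06, limma adjusted p 0.239). Cdh10 had 655 and 669.7 in control libraries against 601 and 578 under DcpS shRNA, lower in both, with a log2 difference of −0.17 (SE 0.07, limma adjusted p 0.215).

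The other members on that chromosome had the fewest reads of the 10. Cdh9, a cadherin known for synapse formation in the hippocampus, gave 30 to 48 reads per library and a normalised read count of 43.7 and 49.2 in the controls against 27.3 and 51.4 with DcpS shRNA. Cdh12 gave 58.0 and 57.4 against 37.3 and 61.5, and Cdh18 gave 54.2 and 72.8 against 55.4 and 61.5. For Cdh9 and Cdh12 the library DcpS shRNA 1 was the lowest of the 4 and DcpS shRNA 2 the highest, so the groups overlapped, as they did for Cdh18.

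The 95% intervals of these genes were wide: −0.88 to 0.28 for Cdh9, −0.76 to 0.24 for Cdh12 and −0.54 to 0.33 for Cdh18 on the log2 scale. A fall as large as that of Cdh8 lies inside the intervals of Cdh9 and Cdh12 and outside that of Cdh18. These intervals therefore do not exclude such a fall for Cdh9 or Cdh12. Exons of Cdh9 share 224 bases with a gene annotated on the opposite strand, and without a strand setting such reads cannot be separated. Those of Cdh12 share 198 bases with a gene annotated on the same strand, whose reads strand would not separate.

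Neither type I cadherin passed the test, and for both the groups overlapped. Cdh2, on chromosome 18, had a normalised read count of 11187 and 10402 in control libraries against 11292 and 11019.6 under DcpS shRNA. Its log2 difference was 0.05 (95% interval −0.06 to 0.16, limma adjusted p 0.691), an interval that excludes a fall as large as that of Cdh8. Cdh4, R-cadherin, on chromosome 2 (179442431 to 179899373), had 1781 and 1713 in control libraries against 1851 and 1768 under DcpS shRNA, and a log2 difference of 0.05 (95% interval −0.07 to 0.17, limma adjusted p 0.697).

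Cdh13, T-cadherin, is held in the membrane by a lipid anchor and lacks the tail that binds catenins. It lies on chromosome 8 (118283733 to 119324921) and had 3314 and 3373 in control libraries and 3567 in each DcpS shRNA library. Both were above the controls, by a log2 difference of 0.09 (95% interval −0.01 to 0.20) that did not pass the test (limma adjusted p 0.352).

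**Figure D2:**
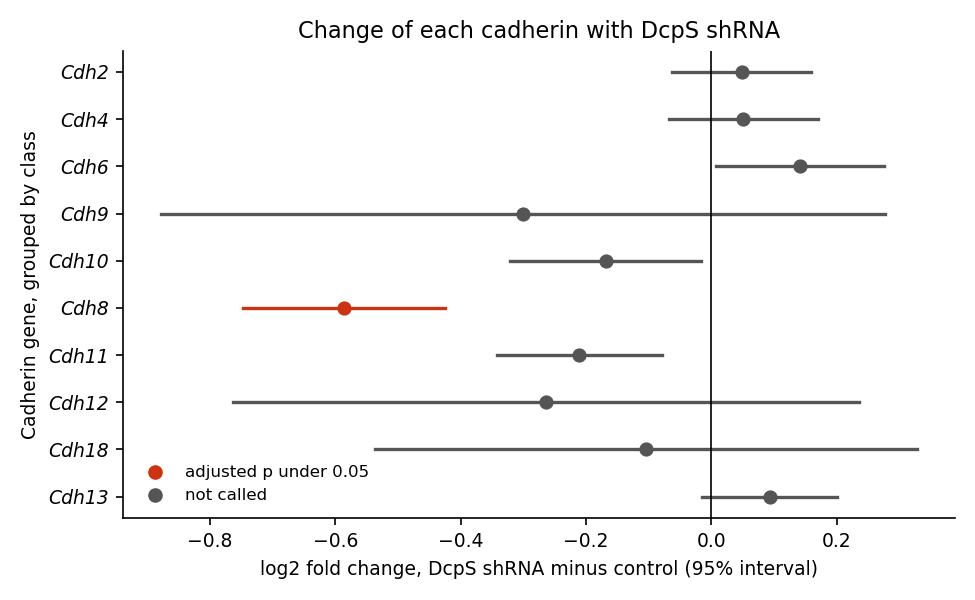
log2 fold change of each cadherin, DcpS shRNA minus control, with its 95% interval from limma, grouped as type I (Cdh2, Cdh4), type II (Cdh6 to Cdh18) and Cdh13. Cdh8 at −0.59 is the member past the threshold. The intervals of Cdh6, Cdh10 and Cdh11 also exclude 0, but they are not adjusted for the number of genes tested, and these genes were not called. The intervals of Cdh2, Cdh4 and Cdh13 include 0 and are narrow, and those of Cdh9, Cdh12 and Cdh18 are the widest.

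Summed per length, type II cadherins stood at 24.9 and 25.7 RPKM in control libraries against 21.8 and 22.3 RPKM under DcpS shRNA. Without Cdh8 the sum of the other 6 was 18.3 and 19.4 RPKM in control libraries against 17.8 and 17.7 RPKM under DcpS shRNA. Cdh8 made up 26.4% and 24.7% of the type II level in control libraries against 18.3% and 20.8% under DcpS shRNA. That lower share repeats the fall of Cdh8 and adds no separate evidence. The type I sum was 82.3 and 77.0 RPKM in control libraries against 83.6 and 81.1 RPKM under DcpS shRNA, with overlap.

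**Figure D3:**
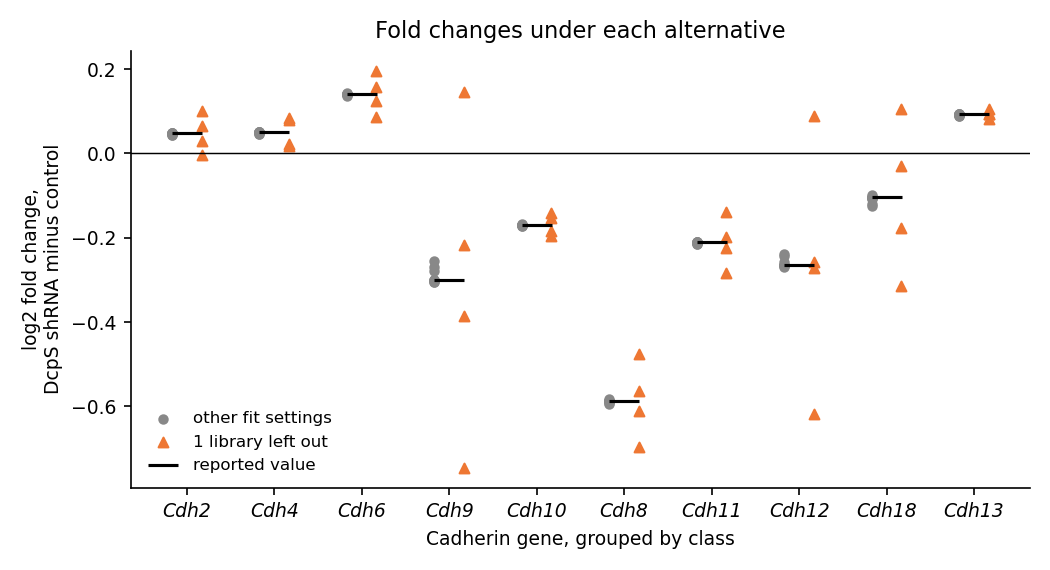
log2 fold change of each cadherin as reported (black bar), under other fit settings (grey circles) and with 1 library left out (orange triangles). Cdh8 stays between −0.70 and −0.48, while Cdh9 runs from −0.75 to 0.15 and Cdh12 from −0.62 to 0.09 as libraries are left out.

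The genes whose pattern over the 4 libraries was most like that of Cdh8, by Euclidean distance between centred log2 values among 10657 genes whose mean reached 10 CPM, were Ak4, a mitochondrial adenylate kinase (distance 0.0613), and Prnp, the prion protein (0.0788). Ak4 had a normalised read count of 514 and 495 in control libraries against 313 and 381 under DcpS shRNA. Prnp had 3234 and 3241 in control libraries against 2061 and 2239 under DcpS shRNA.

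Of the other type I and type II cadherins, 10 were listed and 6 tested, and 0 passed in limma, edgeR or DESeq2, with 0 at an unadjusted p under 0.05 in each. Cdh24, which binds in the same group as Cdh8 and Cdh11, had a normalised read count of 646 and 644 in control libraries against 693 and 707 under DcpS shRNA, a log2 difference of 0.12 (SE 0.07, limma adjusted p 0.390). Cdh7 had 249 and 244 in control libraries against 229.9 and 226 under DcpS shRNA (limma adjusted p 0.632). Of 15 atypical cadherins tested, 1 fell, beside 3.65% of all genes called lower. It was Ret, the receptor tyrosine kinase of the GDNF family with cadherin-like repeats. Ret had 70.3 and 75.9 in control libraries against 40.0 and 38.0 under DcpS shRNA (log2 fold change −0.89, SE 0.20, limma adjusted p 0.0134).

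The call of Ret ended without control 2 (limma adjusted p 0.0814) and in DESeq2 (0.175). Without DcpS shRNA 1 the count of other cadherins called was 8 of 21 in place of 1, all lower: Ret with the giant cadherins Fat1, Fat3, Fat4 and Dchs1, the flamingo-type cadherins Celsr2 and Celsr3, and the calsyntenin Clstn2. DcpS shRNA 2 had the lowest value of the 4 libraries for each of these; for Fat4 it was 3936, beside 4994 in DcpS shRNA 1 and 4647 and 5070.2 in the controls.

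Cadherin-binding and junction genes were lower in part. Of 24 tested, 3 fell and 21 did not pass, beside 3.65% of all genes called lower, and the median log2 fold change was −0.02. Ctnnb1, β-catenin, binds the cadherin tail and also carries the Wnt signal. It had a normalised read count of 18004 and 18235 in control libraries against 14215 and 14011 under DcpS shRNA. Under DcpS shRNA it stood at 77.9% ± 0.797 of the control mean (SD of the DcpS shRNA libraries only, n = 2). On the log2 scale it fell by 0.36 (SE 0.05, limma adjusted p 0.000237), and the 2 DcpS shRNA libraries were close together and well below both controls.

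Lima1, an actin-binding protein that links to the cadherin complex, fell from 1382 and 1449 to 1108 and 1078 (log2 fold change −0.37, SE 0.06, limma adjusted p 0.00100). Ctnna1, αE-catenin, had 3144 and 3201 in control libraries against 2739 and 2634 under DcpS shRNA (log2 fold change −0.24, SE 0.05, limma adjusted p 0.0113); that call ended without control 1 (0.0512) or control 2 (0.113). The neuronal catenins did not pass: Ctnna2, αN-catenin, differed by −0.02 (95% interval −0.13 to 0.09) and Ctnnd2, δ-catenin, by −0.02 (−0.13 to 0.09) on the log2 scale.

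Among 27 genes of cadherin processing and regulation that were tested, 4 fell and 1 rose, beside 3.65% of all genes lower and 2.14% higher. Furin, a protease that cleaves the propeptide from newly made cadherins among many other substrates, went from 671 and 635 to 355 and 354. The DcpS shRNA libraries stood at 54.3% ± 0.109 of the control mean (SD of these libraries only, n = 2), and the controls at 102.8% and 97.2%. The log2 fold change of Furin was −0.88 (SE 0.08, limma adjusted p 5.24e-06). The related convertase Pcsk6 had 110.2 and 104 in control libraries against 76.3 and 46.9 under DcpS shRNA (−0.82, SE 0.21, limma adjusted p 0.0266). Its call ended without DcpS shRNA 2 (limma adjusted p 0.158) and in DESeq2 (0.178).

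Adam10, which sheds the extracellular part of N-cadherin, had 2588 and 2601 in control libraries against 2262 and 2295 under DcpS shRNA (−0.19, SE 0.05, limma adjusted p 0.0451), a call that ended without control 1 (0.228), without control 2 (0.276) and in DESeq2 (0.173). Rap1a, a small GTPase that acts on cadherin adhesion, rose from 936 and 939 to 1209 and 1187 (0.35, SE 0.06, limma adjusted p 0.00172). Rapgef1, an exchange factor that activates Rap1, had 5249.7 and 4942 in control libraries against 4484 and 4337 under DcpS shRNA (−0.21, SE 0.05, limma adjusted p 0.0277), a call that ended without control 1 (0.345) or control 2 (0.0602). Without control 1 the list's count was 3 in place of 5.

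**Figure D4:**
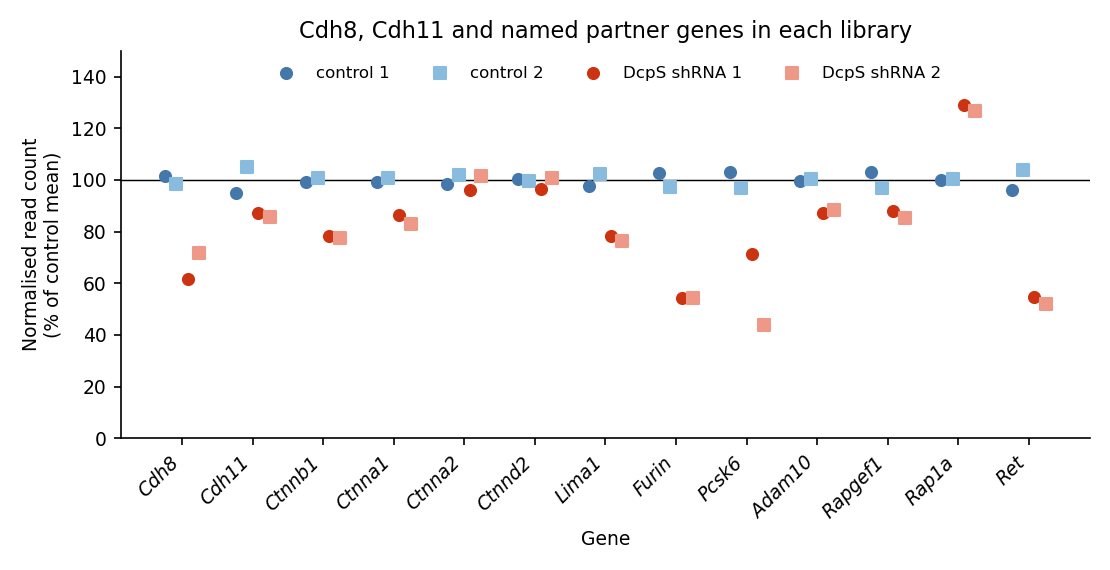
Normalised read count in each library as a percent of the gene's control mean, for Cdh8, Cdh11 and the named partner genes. The DcpS shRNA points lie at 61.7% and 71.8% for Cdh8, near 78% for Ctnnb1 and near 54% for Furin, and at 129% and 127% for Rap1a, while Ctnna2 and Ctnnd2 lie around the control mean.

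The annotated 3′ untranslated regions were searched, on the strand of the transcript, for the words ACGTGCA and CACGTGC, which overlap by 6 letters and both occur in the Dcps transcript. The words were taken from earlier work on these same libraries, in which they were common among lower genes, so their presence in a lower gene is no independent evidence. Either word was present in 8.003% of the 13708 tested genes that could be scanned (GENCODE M21 protein-coding transcripts, regions of unequal length), and in 33.1% of the 646 genes called lower. Of the 10 cadherins 0 had either word, Cdh8 included, whose longest scanned region was 1914 bases; this says only that these letters are not in the annotated regions. Of the named partner genes past the threshold, Ctnnb1, Furin and Lima1 had one, and the sites are shown with that of Dcps to set their flanks side by side, read 5′ to 3′ from the GENCODE M21 transcripts, with the word in capitals and 10 bases on either side:
Dcps: tatcacctgcACGTGCAtttcacagct
Ctnnb1: tagtgtctgaACGTGCAttgtgattgg
Furin: aagtgattaaACGTGCAgactatgcaa
Lima1: gagctgtccaCACGTGCccatcatcaa
In GRCm38 the words lie at chr9:35124756-35124762 (minus strand), chr9:120959798-120959804 (plus), chr7:80389209-80389215 (minus) and chr15:99779447-99779453 (minus). Ctnna1, Adam10, Pcsk6, Rapgef1, Rap1a and Ret had neither word. A word was also present in listed genes that were not called: Aph1a, Ptpn1, Rap1b, Zeb2, Ctnnbip1, Celsr2, Celsr3 and Fat3.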

How the data were processed

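The deposited table gives 1 value per gene and library. Per the submitters' processing notes, GRCm38, HISAT2 2.2.0, SAMtools 1.3.1, Picard, featureCounts and DESeq2 were used; annotation, strand setting and handling of multi-mapping reads are, in the sources used here, not given. The deposited values are a signal, gene counts that the authors had scaled: in each column all values were whole multiples of the smallest positive one. Whole reads were recovered so for 100% of values (tolerance 0.001), with implied size factors of 1.05, 0.975, 1.10 and 0.895. Where 0 reads were seen, up to 3 remain possible, 0.138 to 0.169 CPM, for counting error only.

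As scaled values they were tested with limma 3.58.1 on log2(value + 1), with intensity trend and robust empirical Bayes and group as the only term; the log2(value + 1) scale understates changes of low genes. Genes were kept by filterByExpr of edgeR 4.0.16 (minimum count 10) on the recovered reads. The named genes were all 10 members, Dcps, Ctnnb1, Ctnna2, Ctnnd2, up to 6 called genes of smallest adjusted p in each other list, and the 2 nearest patterns to each called member. Cdh24, Cdh7 and the atypical cadherins called without DcpS shRNA 1 were named after their values were seen. Members and lists were chosen with earlier results of these data known. Alternatives were edgeR's quasi-likelihood test and DESeq2 1.42.0 on the recovered reads, pseudocounts of 0.5 and 5, no filter, TMM and library-total scaling, the set number as a block, and each library left out. Reads were also simulated for DcpS shRNA against control shRNA, over 18110 genes with 200 changed. There limma recovered 44% of genes changed 1.3-fold, 68% changed 1.5-fold and 84% changed 2-fold, and 3 of 151 calls were false. The simulation gave every gene and library the same set dispersion, not estimated from these data, so these shares may not hold for the real libraries.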

Additional observations from a re-analysis of the deposited data

How the results depend on the processing

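Cdh8 kept its direction and its call in all 12 alternatives. The 9 other cadherins kept theirs, in 8 settings other than leaving out a library, except Cdh11, which passed with the set number as a replicate block (limma adjusted p 0.0188) and in edgeR, and Cdh9, which DESeq2 gave no adjusted p. Directions that turned did so when 1 library was left out, and none of those values passed: Cdh2 at −0.0042 without control 2 (log2 range −0.0042 to 0.10 over libraries left out), Cdh18 at 0.11 without control 2 (−0.31 to 0.11), and, without DcpS shRNA 1, Cdh9 at 0.15 (−0.75 to 0.15) and Cdh12 at 0.090 (−0.62 to 0.090). The number of cadherins called was 2 with the replicate block and in edgeR, and 1 to 2 with a library left out. With the block 1 of 5 GABAergic markers was called (limma), in place of 0. The set numbers were not shown to pair the libraries (correlation of deviations 0.0429). All genes called numbered 1626 with the block, in place of 1048, 453 in DESeq2, and 747 to 1745 with a library left out, the highest without DcpS shRNA 1. Other cadherins called were 0 in DESeq2 (1 at an unadjusted p under 0.05; edgeR 1) and 0 to 8 with a library left out, 0 without control 2 (limma, 3 at an unadjusted p under 0.05). Processing and regulator genes called were 3 in DESeq2 and 3 to 6 with a library left out. Where 1 library of a group remained it was assumed to vary like the other group. The cause of these moves was not tested. Cdh9, Cdh12 and Cdh18 had the fewest reads and the widest intervals.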
